A study of Mus musculus with 9 samples.

Results

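Acute-phase genes encode secreted proteins whose level in blood rises during inflammation, and 6 of them were followed here across all libraries. They are the serum amyloid A genes Saa1, Saa2 and Saa3, the lipocalin gene Lcn2, the complement component gene C3 and the haptoglobin gene Hp. They were chosen by gene symbol from the 19240 genes of the expression table, and each symbol had 1 row. The data are RNA-seq profiles of 9 mouse libraries, 3 in each of 3 groups. They were made to compare different point mutations of the calcium-binding protein S100A8 with an overexpression control.

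By their labels, the groups were an overexpression control (OEA8_Ctrl), overexpressed S100A8 with a point mutation at residue 67 (OEA8_67) and overexpressed S100A8 with a point mutation at residue 69 (OEA8_69), which the study calls OEa8, OEa8-67 and OEa8-69. What the control construct encodes is not stated in the labels, and the study speaks of reference cells that overexpress S100A8. No drug treatment is named for these libraries, and neither age nor strain is given. Per the study's methods, fibroblasts were infected with lentivirus and then selected, and no clone is named. Whether replicates were separate cultures is not stated, and p-values here therefore reflect only how far these libraries differ, which may be technical.

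The labels give the cells as hematopoietic stem cells, whereas the study describes mouse embryonic fibroblasts, and the markers followed the latter. In each library 9 or 10 of 10 fibroblast markers were at 1 FPKM or more (Thy1 was at 0.96 FPKM in OEA8_67 replicate 2), and they summed to between 6170 and 6917 FPKM (a count of fragments divided by transcript length and by the library's mapped total). Of 9 markers of hematopoietic stem and progenitor cells, 3 reached 1 FPKM (Gata2, Cd34 and Ly6a), and Kit and Ptprc were at or below 0.03 FPKM in every library. None of 7 hepatocyte markers reached 1 FPKM, and they summed to between 0.05 and 0.28 FPKM. Neutrophil markers summed to between 1.99 and 3.37 FPKM with 1 of 7 at 1 FPKM or more (Camp), and macrophage markers to between 6.97 and 9.79 FPKM with 2 of 7 (Cd68 and Lyz2). S100a8 itself was between 3.75 and 6.24 FPKM in the 9 libraries, a low level that does not bear out the labelled overexpression, and no library without a construct was analysed here to compare it with. Its adjusted p in the F test of the 3 groups was 0.599 (limma). The values summed to between 469909 and 501342 FPKM in a library, and the read depth behind them is unknown. Across genes, r was 0.995 to 0.997 between replicates.

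During an acute-phase response, the cytokines IL-6, IL-1 and TNF act on the liver and on other tissues. IL-6 activates the transcription factor STAT3, IL-1 and TNF activate NF-kB, and C/EBP factors act beside both at many acute-phase promoters. In mouse, Saa1 and Saa2 are expressed mainly by the liver and their proteins circulate with high-density lipoprotein, while Saa3 is expressed mainly outside the liver, for example by macrophages and adipocytes. Lcn2 binds bacterial siderophores and so withholds iron from bacteria, C3 is the component on which the complement pathways converge, and haptoglobin binds free hemoglobin.

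The 3 serum amyloid A genes lie close together on chromosome 7 of the GRCm38 assembly, the one named mm10. Saa3 (gene ID 20210) spans chr7:46711998-46719615, Saa1 (20208) chr7:46740497-46743181 and Saa2 (20209) chr7:46751833-46754313. Lcn2 (16819) spans chr2:32384637-32387739, C3 (12266) chr17:57203967-57228136 and Hp (15439) chr8:109575128-109579172. The coding sequences of Saa1 and Saa2 are 369 bases each, and 18 of these bases differ, an identity of 95.1%. Coding bases 73 to 359, which hold all 18, are shown because their likeness bears on how reads could be divided between these genes. The sequences come from the GENCODE M21 annotation of GRCm38, and capitals mark the bases at which the pair differs.
Saa1: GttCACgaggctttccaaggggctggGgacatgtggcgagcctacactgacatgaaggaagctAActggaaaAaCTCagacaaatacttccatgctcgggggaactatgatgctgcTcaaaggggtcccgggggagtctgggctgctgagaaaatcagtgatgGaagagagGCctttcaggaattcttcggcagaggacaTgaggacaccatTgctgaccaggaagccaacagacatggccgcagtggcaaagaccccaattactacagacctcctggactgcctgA
Saa2: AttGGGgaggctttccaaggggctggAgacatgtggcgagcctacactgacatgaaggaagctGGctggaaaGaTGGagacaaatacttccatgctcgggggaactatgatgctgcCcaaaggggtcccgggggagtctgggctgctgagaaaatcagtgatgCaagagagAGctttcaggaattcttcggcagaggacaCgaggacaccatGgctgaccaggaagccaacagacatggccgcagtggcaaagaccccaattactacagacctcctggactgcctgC
Of the 50-base windows of the Saa1 coding sequence 14.7% also occur in Saa2, so a share of reads fits both genes, and the values of Saa1 and Saa2 are uncertain to that extent. RefSeq also lists each of these genes under the other's name as an older synonym, and they are told apart here by gene ID. Saa3 is farther from both, with a coding identity of 74.5% to Saa1 and 72.9% to Saa2. Of the 50-base windows of the Saa1 coding sequence 2.81% also occur in Saa3, and of those of Saa2 0%. Saa3 had a far higher level than Saa1 in these cells, and how far shared reads add to the Saa1 value was not tested.

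Promoter sequence is shown for the genes with the highest levels and for Saa2, which was higher in OEA8_69. RefSeq promoters were at hand for Saa1, Saa2, Saa3, Lcn2 and C3. The 250 bases before the annotated start of each hold 1 match to the C/EBP core motif TTNNGCAA, read on both strands, and 9.56% of 32851 promoters of the same length hold at least 1 match. This form of the motif was chosen with the sequences in view, so the matches cannot be weighed against that share. Capitals mark the match in the sequences below, which are from RefSeq (GRCm38.p6) and are printed in the direction of transcription.
Saa3, chr7:46715677-46715926, minus strand: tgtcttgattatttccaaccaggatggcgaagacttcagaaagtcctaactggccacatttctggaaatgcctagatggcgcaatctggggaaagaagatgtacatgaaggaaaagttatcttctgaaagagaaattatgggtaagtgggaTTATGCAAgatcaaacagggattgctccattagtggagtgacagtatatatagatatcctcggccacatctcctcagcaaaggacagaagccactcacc
Lcn2, chr2:32387740-32387989, minus strand: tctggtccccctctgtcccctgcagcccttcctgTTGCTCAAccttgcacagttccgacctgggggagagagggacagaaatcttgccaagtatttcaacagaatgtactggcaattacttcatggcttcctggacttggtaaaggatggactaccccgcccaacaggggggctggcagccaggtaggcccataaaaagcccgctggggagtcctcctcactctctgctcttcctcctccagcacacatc
C3, chr17:57228137-57228386, minus strand: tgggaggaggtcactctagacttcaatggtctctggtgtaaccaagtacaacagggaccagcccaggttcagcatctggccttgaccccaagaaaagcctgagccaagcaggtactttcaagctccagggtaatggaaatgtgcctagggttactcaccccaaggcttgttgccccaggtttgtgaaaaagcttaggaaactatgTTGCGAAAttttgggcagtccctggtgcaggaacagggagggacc
Saa2, chr7:46751583-46751832, plus strand: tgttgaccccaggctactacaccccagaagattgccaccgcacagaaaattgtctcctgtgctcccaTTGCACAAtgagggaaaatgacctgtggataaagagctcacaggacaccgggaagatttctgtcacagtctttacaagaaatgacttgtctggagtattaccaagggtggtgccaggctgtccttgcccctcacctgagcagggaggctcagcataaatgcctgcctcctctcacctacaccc
For Saa3 and Saa1, the start used lies inside the annotated span of the gene. The match lies 99 to 92 bases before the start in Saa3, 216 to 209 in Lcn2, 45 to 38 in C3, 183 to 176 in Saa2 and 182 to 175 in Saa1. The STAT motif TTCNNNGAA, held by 7.02% of promoters, and the NF-kB consensus, held by 7.25%, had no match in these 5 windows. The promoters of Saa1 and Saa2 are 94.8% identical and hold the same match, so these are not separate matches.

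These cells expressed 3 of the acute-phase genes at high levels and 3 at low levels. By mean level per transcript length over the 9 libraries, Saa3 ranked 24 of 19240 genes, Lcn2 ranked 85 and C3 ranked 312. Hp ranked 7785, Saa2 ranked 9333 and Saa1 ranked 10791. The mean level was 1563 ± 148 FPKM for Saa3, 853 ± 73.3 for Lcn2 and 219 ± 6.56 for C3 (SD, n = 9), and the ranges of these 3 genes over the libraries did not overlap. It was 6.87 ± 1.37 FPKM for Hp, 3.86 ± 1.30 for Saa2 and 1.56 ± 0.534 for Saa1 (SD, n = 9). The lowest value of Hp (5.11 FPKM) was below the highest of Saa2 (6.3 FPKM), and the lowest of Saa2 (2.45 FPKM) was below the highest of Saa1 (2.61 FPKM), so neighbours among the 3 low genes overlapped across libraries. Within every library, however, Hp was above Saa2. All 6 genes passed the minimum of 0.5 FPKM on the mean of the 9 libraries and were tested.

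**Figure D1:**
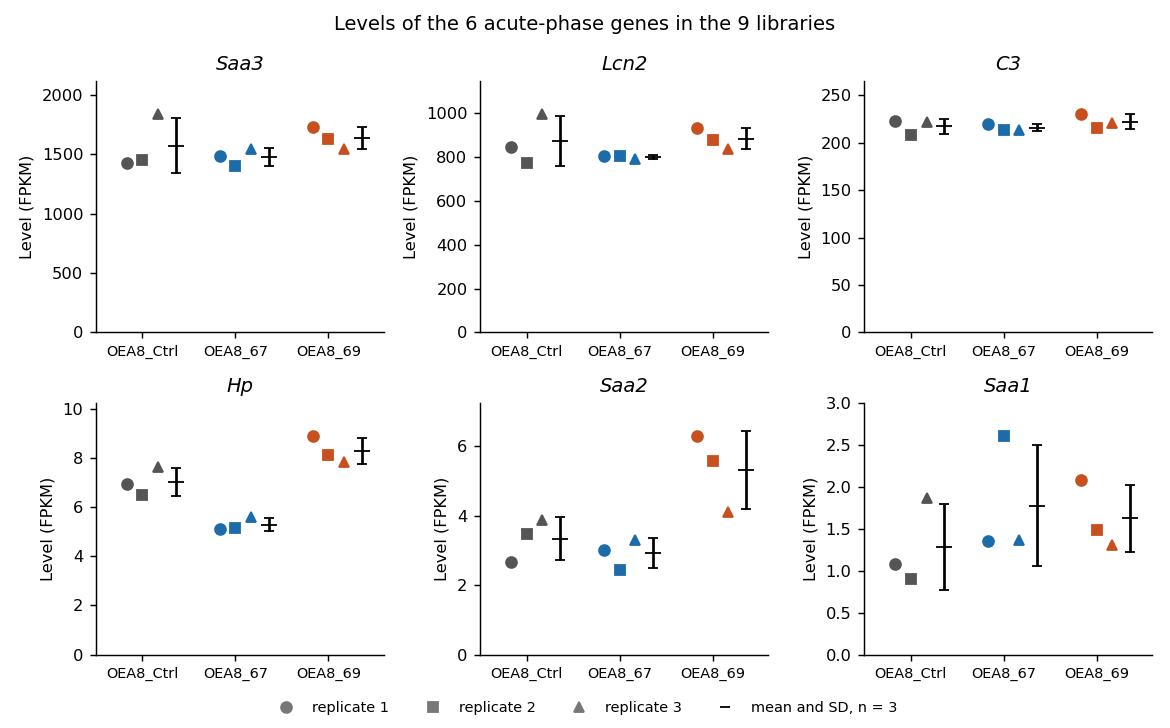
Level in FPKM (linear axes from 0) of the 6 acute-phase genes in the 9 libraries, 1 point per library with the replicate number as its shape, and the mean with SD (n = 3) beside each group. Hp in OEA8_67 (5.11 to 5.61 FPKM) sits below both other groups and Saa2 in OEA8_69 (4.1 to 6.3 FPKM) above both, while the groups of C3 lie within 207.99 to 230.61 FPKM.

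Across the 3 comparisons the genes that passed the test were Hp and Saa2, members of the low set. Hp was lower in OEA8_67 than in OEA8_Ctrl and higher in OEA8_69 than in OEA8_67. Saa2 was higher in OEA8_69 than in either other group. Genes were called at an adjusted p under 0.05 in a limma model of log2(FPKM + 1), a scale that understates the change of low genes, and adjustment was over 12012 genes. In OEA8_67 against OEA8_Ctrl, 1 of the 6 was called, against 7.88% of all genes tested. In OEA8_69 against OEA8_Ctrl, 1 of the 6 was called, against 9.79% of all genes tested, and in OEA8_69 against OEA8_67, 2 of the 6, against 3.16%. In the moderated F test of the 3 groups 2 were called, Hp (adjusted p = 0.000734) and Saa2 (adjusted p = 0.0149), against 12.1% of all genes. Among only 6 genes a single call moves the share widely, and whether these shares differ from those of all genes was not tested. The comparisons share libraries, so they are not independent of each other.

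**Figure D2:**
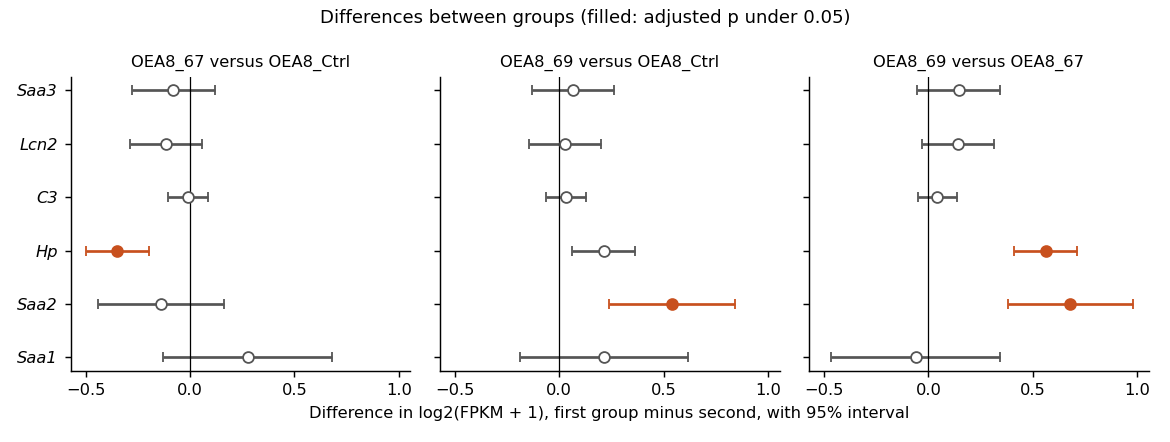
Difference in log2(FPKM + 1) between groups for each gene, with its 95% interval from the limma model, in 3 panels for the 3 comparisons. Filled points passed the test at an adjusted p under 0.05, which are Hp at -0.35 and 0.56 and Saa2 at 0.54 and 0.68.

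Hp, whose protein haptoglobin captures hemoglobin released from red cells, had the clearest difference. Its level was 6.94, 6.48 and 7.64 FPKM in the OEA8_Ctrl libraries, 5.11, 5.15 and 5.61 in OEA8_67, and 8.9, 8.12 and 7.85 in OEA8_69. All OEA8_67 libraries were below all OEA8_Ctrl libraries, and all OEA8_69 libraries were above them. The mean in OEA8_67 was 5.29 ± 0.278 FPKM, 75.4% of the 7.02 ± 0.584 in OEA8_Ctrl (SD, n = 3), a log2 difference of -0.35 (SE 0.0686, adjusted p = 0.00945, limma). The mean in OEA8_69 was 8.29 ± 0.545 FPKM (SD, n = 3), 157% of that in OEA8_67, a log2 difference of 0.56 (SE 0.0686, adjusted p = 0.00144). These calls held under each alternative setting tried. Against OEA8_Ctrl, Hp in OEA8_69 differed by 0.21 on the log2 scale (95% interval 0.0631 to 0.363) and did not pass the test (adjusted p = 0.0756). That difference passed in 2 of 20 alternatives. Without OEA8_Ctrl replicate 3, the control library with the highest Hp, it was 0.27 and passed (adjusted p = 0.0219). Without OEA8_69 replicate 1, the mutant library with the highest Hp, it was 0.17 and did not pass (adjusted p = 0.248).

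Of the 10 fibroblast markers, 3 were called lower in OEA8_67 than in OEA8_Ctrl, beside 4.66% of all genes tested, and 7 were not called, among them Col1a1 and Vim, at differences of -0.015 and -0.047. The mean of the 10 markers on the log2(FPKM + 1) scale was 7.88 to 7.92 in OEA8_Ctrl, 7.67 to 7.69 in OEA8_67 and 7.82 to 7.85 in OEA8_69. Dcn, the proteoglycan decorin, fell by 0.60 on the log2 scale in OEA8_67 (adjusted p = 4.2e-06), and the other calls were Thy1 and Pdgfra, at -0.60 and -0.43. Against OEA8_67, Dcn, Thy1 and Col3a1 were called higher in OEA8_69, at 0.24, 0.75 and 0.19, whereas Dcn (-0.36) and Pdgfra (-0.26) were lower in OEA8_69 than in OEA8_Ctrl. The share of these markers in the Hp result was not tested. Adipocyte markers, from a cell type that expresses Hp, Lcn2 and Saa3, summed to 29.5 to 37.0 FPKM in OEA8_Ctrl, 23.5 to 29.4 in OEA8_67 and 25.8 to 29.5 in OEA8_69, with 1 or 2 of 4 at 1 FPKM or more (Fabp4 in every library, while Pparg was below it in OEA8_69 replicates 1 and 2). Nearly all of that sum was Fabp4, at a mean of 27.4 FPKM over the libraries beside 1.33 for Pparg. The part of the adipocyte markers in the Hp result was not tested either. In bulk libraries, fewer cells of a type and less RNA per cell cannot be told apart.

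Saa2, a liver-type serum amyloid A gene, was low in all groups. Its level was 2.66, 3.46 and 3.88 FPKM in OEA8_Ctrl, 3.02, 2.45 and 3.29 in OEA8_67, and 6.3, 5.59 and 4.1 in OEA8_69. All OEA8_69 libraries were above all libraries of the other groups, and replicate 3 was the lowest of them, close to the highest control. The mean in OEA8_69 was 5.33 ± 1.12 FPKM, 160% of the 3.33 ± 0.620 in OEA8_Ctrl (SD, n = 3), a log2 difference of 0.54 (SE 0.138, adjusted p = 0.0286, limma). Against the 2.92 ± 0.429 FPKM of OEA8_67 (SD, n = 3) the log2 difference was 0.68 (SE 0.138, adjusted p = 0.0239). Between OEA8_67 and OEA8_Ctrl it was -0.14 (95% interval -0.441 to 0.160, adjusted p = 0.561), and the libraries overlapped. The calls of Saa2 rest on few libraries. The comparison of OEA8_69 with OEA8_Ctrl no longer passed without OEA8_Ctrl replicate 1 (adjusted p = 0.109) or 2 (0.0547) or without OEA8_69 replicate 1 (0.113) or 2 (0.0981). Likewise the comparison with OEA8_67 no longer passed without OEA8_67 replicate 1 (0.0636) or 2 (0.106) or without OEA8_69 replicate 1 (0.0980) or 2 (0.0914).

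Saa1, the neighbour of Saa2 with the near-identical coding sequence, did not pass the test in any comparison. Its level was 1.08, 0.9 and 1.87 FPKM in OEA8_Ctrl, 1.35, 2.61 and 1.37 in OEA8_67, and 2.08, 1.49 and 1.31 in OEA8_69. The highest value belonged to OEA8_67 replicate 2, the library with the lowest Saa2, and all groups overlapped. The log2 difference from OEA8_Ctrl was 0.28 in OEA8_67 (95% interval -0.129 to 0.680) and 0.21 in OEA8_69 (95% interval -0.190 to 0.619), with adjusted p of 0.384 and 0.518, and the size seen for Saa2 in OEA8_69, 0.54, lies within the interval for Saa1 in that group. The sum of Saa1 and Saa2 removes the question of how reads were split between this pair, but not that of reads shared with Saa3. It was 3.74, 4.36 and 5.75 FPKM in OEA8_Ctrl, 4.37, 5.06 and 4.66 in OEA8_67, and 8.38, 7.08 and 5.41 in OEA8_69. The sum in OEA8_69 replicate 3 was below that in OEA8_Ctrl replicate 3, so these groups overlapped. The log2 difference of the sum between OEA8_69 and OEA8_Ctrl was 0.50 (SE 0.140, adjusted p = 0.0435, limma), and between OEA8_69 and OEA8_67 it was 0.47 and did not pass (adjusted p = 0.0977).

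Saa3, the serum amyloid A gene of extrahepatic tissues, was the most abundant of the 6 in every library. Its level was 1426.39, 1451.75 and 1841.08 FPKM in OEA8_Ctrl, 1488.95, 1399.9 and 1548.44 in OEA8_67, and 1732.23, 1632.2 and 1544.25 in OEA8_69. The highest value was OEA8_Ctrl replicate 3, and the groups overlapped in all comparisons. Log2 differences were -0.08 for OEA8_67 against OEA8_Ctrl (95% interval -0.278 to 0.118, adjusted p = 0.623), 0.07 for OEA8_69 against OEA8_Ctrl (-0.133 to 0.263, adjusted p = 0.713) and 0.15 for OEA8_69 against OEA8_67 (-0.0526 to 0.343, adjusted p = 0.411).

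Lcn2, which encodes the siderophore-binding lipocalin 2, gave 844.3, 774.81 and 997.96 FPKM in OEA8_Ctrl, 805.51, 804.54 and 792.84 in OEA8_67, and 933.93, 880.6 and 839.05 in OEA8_69. The 3 OEA8_67 libraries lay close together and below all OEA8_69 libraries, while the controls spanned both groups. The log2 difference between OEA8_69 and OEA8_67 was 0.14 (95% interval -0.0310 to 0.314, adjusted p = 0.353). Those from OEA8_Ctrl were -0.12 in OEA8_67 (adjusted p = 0.395) and 0.03 in OEA8_69 (adjusted p = 0.874).

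C3, the central complement component, varied least among the 6 between replicates, with an SD within groups of 0.0444 on the log2 scale, against 0.0854 to 0.300 for the others. It was at 222.57, 207.99 and 221.79 FPKM in OEA8_Ctrl, 220.08, 213.74 and 213.74 in OEA8_67, and 230.61, 215.87 and 220.7 in OEA8_69. Groups overlapped throughout. The log2 difference was -0.01 for OEA8_67 against OEA8_Ctrl (95% interval -0.104 to 0.0839), 0.03 for OEA8_69 against OEA8_Ctrl (-0.0615 to 0.126) and 0.04 for OEA8_69 against OEA8_67 (-0.0515 to 0.136), with adjusted p between 0.630 and 0.911. Of the members, then, groups did not overlap for 1 of 6 in OEA8_67 against OEA8_Ctrl (28.2% of all genes), 2 of 6 in OEA8_69 against OEA8_Ctrl (27.5%) and 3 of 6 in OEA8_69 against OEA8_67 (31.6%). The median log2 difference over the 6 was -0.10, 0.14 and 0.14 in these comparisons, beside 0.02, 0.02 and 0.00 over all genes tested.

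Deviations from the group means were positively correlated for every pair of members, most closely among Saa3, Lcn2 and Hp. For the other pairs r was between 0.128 (Saa2 and C3) and 0.763 (Saa2 and Saa3). The deviations of Saa3 and Lcn2 from their group means correlated with r = 0.868 over the 9 libraries, those of Saa3 and Hp with r = 0.845 and those of Lcn2 and Hp with r = 0.834. OEA8_Ctrl replicate 3 had the highest level of all 3 within its group, and so did OEA8_69 replicate 1. In OEA8_67, however, replicate 3 had the highest Saa3 and Hp but the lowest Lcn2. These points share library and base composition, and the values are a description. Transcript length also went with the library. Among genes whose longest coding transcript was under 1000 bases (604 of those tested), the median deviation from the gene's mean over the 9 libraries was 0.12 on the log2 scale in OEA8_Ctrl replicate 3, between -0.07 and -0.04 in the other controls, between -0.07 and -0.01 in OEA8_67 and between 0.01 and 0.08 in OEA8_69. Lcn2 itself deviated by 0.23 in OEA8_Ctrl replicate 3 and Saa3 by 0.24. The longest coding transcript of Saa3 has 2200 bases, and the median deviation of genes in that length class was 0.048 in that library. Another Saa3 transcript aligned with that of Saa1 over 639 columns, gaps included, and so is under 1000 bases. Which of them these cells express was not tested. After centring each library within 10 classes of transcript length, a setting chosen after seeing the data, Hp remained called lower in OEA8_67, and in OEA8_69 against OEA8_Ctrl its difference was 0.20 and passed (adjusted p = 0.0434).

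**Figure D3:**
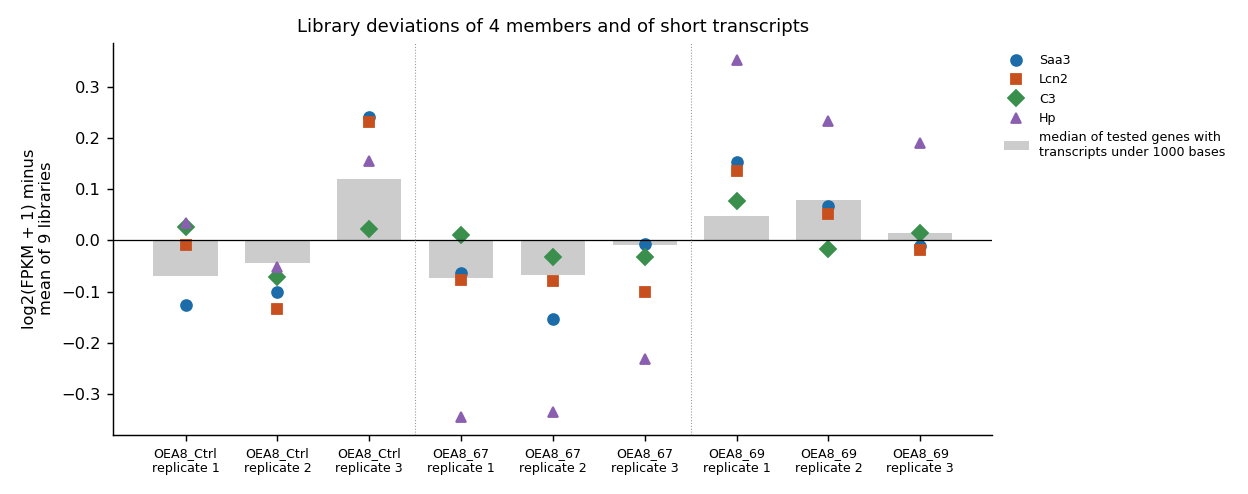
Deviation of log2(FPKM + 1) from the mean of the 9 libraries for Saa3, Lcn2, C3 and Hp (points), and the median deviation of the 604 tested genes with transcripts under 1000 bases (grey bars), by library. Saa3 and Lcn2 stand highest in OEA8_Ctrl replicate 3, as do the short transcripts. Saa3 is not in that class, which goes by the longest coding transcript (2200 bases for Saa3). Hp is below the mean in all OEA8_67 libraries and above it in all OEA8_69 libraries.

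Over the 9 libraries, the gene whose log2 level was most like that of Hp was Gas6, a ligand of the TAM receptor kinases (r = 0.974, among 8575 genes at a mean level of 5 FPKM or more). Fcgrt, which encodes the neonatal Fc receptor that recycles albumin and IgG, followed with r = 0.973, then Serpine2, a protease inhibitor (0.972), Rtl8c (0.967) and Uckl1 (0.965). For Saa3 the closest were Mrps28 (0.978), Lxn (0.953), the ribosomal protein gene Rpl19 (0.945), Itgb1bp1 (0.944) and Ubl5 (0.941), and for Lcn2 they were Gabarap (0.964), Psenen (0.960), Nrbp1 (0.960), Itgb1bp1 (0.958) and Psmd13 (0.957). Saa2 was most like Dipk1b (0.962), C3 most like Mad2l2 (0.899) and Saa1 most like Rhot2 (0.903). These are the highest of many correlations over only 9 libraries that differ by group, and carry no test.

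Other acute-phase genes split between those that are silent in these cells and those that are expressed. Crp, the gene of C-reactive protein, was at or below 0.03 FPKM in every library, and Alb was at or below 0.06. In OEA8_67, Lbp, Mt2 and Cd14 were lower and Il1rn was higher than in OEA8_Ctrl. In OEA8_69, Lbp, Serpina3n, Serpina3g and Il1rn were higher than in OEA8_Ctrl, and Lbp, Serpina3n and Serpina3g higher than in OEA8_67. Of all genes tested, 3.21% were higher and 4.66% lower in the first of these comparisons, 4.55% and 5.24% in the second, and 1.89% and 1.27% in the last. These are examples and not a count over such genes. The lists of genes were chosen with results of these data known and are no independent evidence.

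Lbp, whose product carries bacterial lipopolysaccharide to CD14, had the same order of groups as Hp. It was at 28.65, 26.49 and 26.31 FPKM in OEA8_Ctrl, 21.05, 20.38 and 20.05 in OEA8_67, and 34.02, 29.69 and 31.3 in OEA8_69, with no overlap between any pair of groups. The log2 difference was -0.39 for OEA8_67 (SE 0.05, adjusted p = 0.00115) and 0.21 for OEA8_69 (adjusted p = 0.0294) against OEA8_Ctrl, and 0.60 between the mutants (adjusted p = 0.000218, limma). The call against OEA8_Ctrl in OEA8_69 passed in 15 of 20 alternatives, and the other calls in all of them. Serpina3n, an acute-phase protease inhibitor, was at 16.99, 15.53 and 15.79 FPKM in OEA8_Ctrl, 14.98, 15.29 and 13.51 in OEA8_67, and 22.67, 21.61 and 19.99 in OEA8_69. It was higher in OEA8_69 than in OEA8_Ctrl by 0.39 (adjusted p = 0.00177) and than in OEA8_67 by 0.52 (adjusted p = 0.00124). Its relative Serpina3g was higher in OEA8_69 too, by 0.16 and 0.26, and because the Serpina3 genes are close copies their values are uncertain.

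Not all of these genes had that order. Il1rn, the gene of the interleukin 1 receptor antagonist, was higher than OEA8_Ctrl in both mutants, at 37.8 ± 1.31 FPKM in OEA8_Ctrl, 44.8 ± 0.920 in OEA8_67 and 44.2 ± 0.866 in OEA8_69 (SD, n = 3), with log2 differences of 0.24 and 0.22. In OEA8_67, Mt2, a metallothionein, differed by -0.29 (adjusted p = 0.0264) and Cd14, the lipopolysaccharide co-receptor, by -0.19 (adjusted p = 0.0401).

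**Figure D4:**
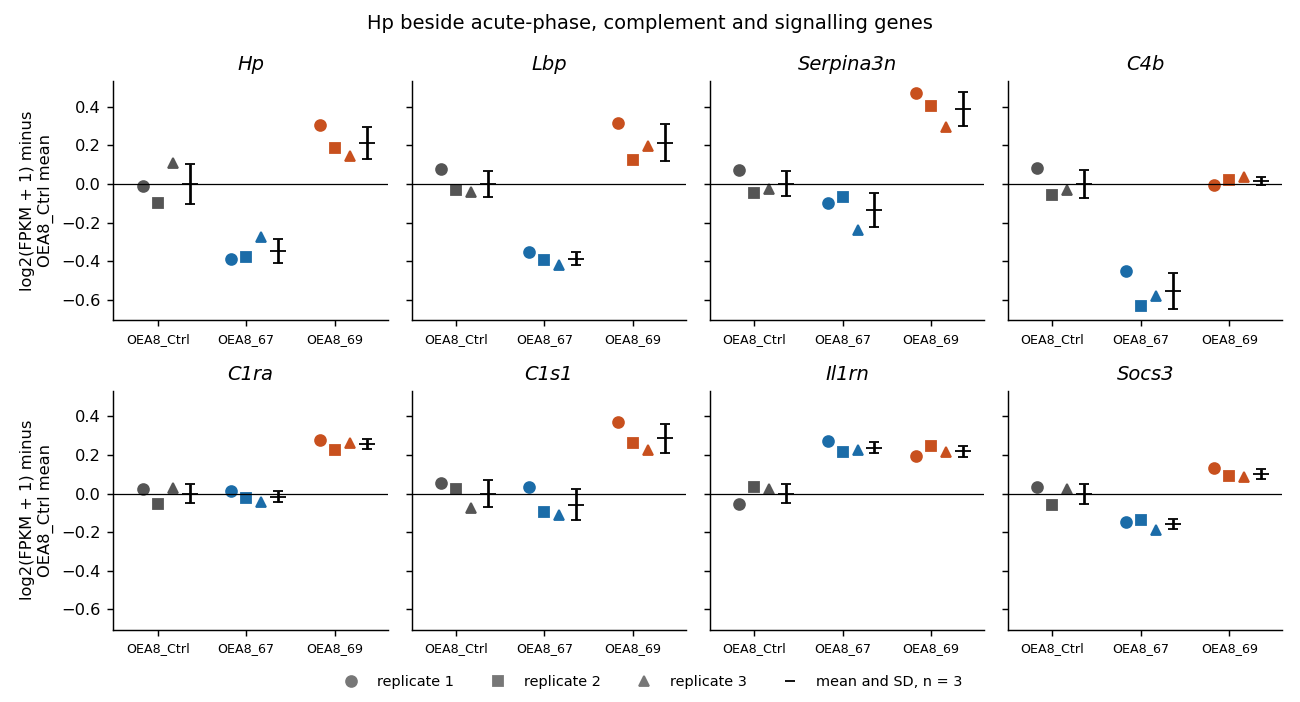
Difference in log2(FPKM + 1) from the OEA8_Ctrl mean for Hp and for 7 genes of the acute-phase, complement and signalling lists, 1 point per library with the mean and SD (n = 3). Hp and Lbp are below the controls in OEA8_67 and above them in OEA8_69, whereas Il1rn is above them in both mutants.

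C3 acts with the other complement components, of which 16 of 33 in the table passed the minimum level. In OEA8_67 against OEA8_Ctrl 3 were lower (C4b, Clu and Cd93), and in OEA8_69 against OEA8_Ctrl 2 were higher (C1ra and C1s1) and 3 lower (Cd59a, Cr1l and Cd93). Between the mutants 3 were higher in OEA8_69 (C1ra, C1s1 and C4b). The calls came to 18.8%, 31.2% and 18.8% of the 16 genes, beside 7.88%, 9.79% and 3.16% of all genes tested. C4b, the classical pathway component that helps to form the C3 convertase, was at 2.6, 2.27 and 2.33 FPKM in OEA8_Ctrl, 1.48, 1.19 and 1.27 in OEA8_67, and 2.38, 2.45 and 2.48 in OEA8_69. OEA8_67 was below both other groups with no overlap, at a log2 difference of -0.56 from OEA8_Ctrl (adjusted p = 0.000454), and C4b was 0.57 higher in OEA8_69 than in OEA8_67 (adjusted p = 0.00144). C1ra and C1s1, the proteases of the C1 complex, were higher in OEA8_69 than in OEA8_Ctrl by 0.26 (adjusted p = 0.00146) and 0.29 (adjusted p = 0.00756), and both have close copies in mouse, so their values are uncertain. Cd93, named for C1q binding but a marker of endothelial cells, was at 5.76 ± 0.428 FPKM in OEA8_Ctrl, 0.920 ± 0.0624 in OEA8_67 and 0.593 ± 0.0208 in OEA8_69 (SD, n = 3). Of 8 endothelial markers 3 passed the minimum level (Cdh5, Flt1 and Sox18), and all 3 were called lower in both mutants. The 8 summed to 19.2 to 21.3 FPKM in OEA8_Ctrl and 3.28 to 4.62 in the mutants, a difference that rests mainly on these 3. Below the minimum, Pecam1 was at 0.51 to 0.78 FPKM in OEA8_Ctrl and 0.03 to 0.21 in the mutants. Kdr was at 0.35 to 0.46 and 0.03 to 0.1 FPKM, while Vwf, Tek and Esam were at or below 0.12 FPKM in every library. The part of the endothelial markers in the Cd93 result was not tested. Over the alternatives the calls of this list numbered 1 to 5, 3 to 6 and 2 to 5 in the 3 comparisons, going from 3 to 5 in OEA8_67 without OEA8_Ctrl replicate 2, from 5 to 3 in OEA8_69 without OEA8_69 replicate 3, and from 3 to 5 between the mutants without OEA8_Ctrl replicate 3. The activator Cfb was at 0.78 to 1.08 FPKM, and C3ar1, the receptor of the C3a fragment, at or below 0.08 FPKM in every library.

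Most signalling genes upstream of the acute-phase response were expressed and not called. Of 37 measured, 34 passed the minimum, and Il1a (0.13 to 0.67 FPKM), Il1b (at or below 0.05) and Tnf (at or below 0.1) did not. Of the 34, 3 were lower in OEA8_67 (Tlr4, Socs3 and Il17rc), 2 higher in OEA8_69 (Il6st and Cebpd) and 2 lower in OEA8_69 (Tlr4 and Lif), all against OEA8_Ctrl. Between the mutants Socs3 and Cebpd were higher and Lif lower in OEA8_69. The calls against OEA8_Ctrl came to 8.82% and 11.8% of the list, near the 7.88% and 9.79% of all genes, and those between the mutants to 8.82%, beside 3.16%. Socs3, a STAT3 target that feeds back on IL-6 signalling, was at 57.52, 53.75 and 56.95 FPKM in OEA8_Ctrl, 50.52, 50.94 and 49.09 in OEA8_67, and 61.44, 59.67 and 59.57 in OEA8_69, an order of groups like that of Hp. The mutants differed by 0.26 (SE 0.04, adjusted p = 0.00560, limma). Cebpd, a C/EBP factor of the acute phase, was at 136 ± 10.2 FPKM in OEA8_Ctrl, 136 ± 2.49 in OEA8_67 and 158 ± 5.29 in OEA8_69 (SD, n = 3), higher in OEA8_69 than in OEA8_Ctrl by 0.22 (adjusted p = 0.0203).

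Il6st, the shared receptor chain gp130, was higher in OEA8_69 than in OEA8_Ctrl by 0.30 (adjusted p = 0.0200). Il6, whose product is the main inducer of the liver's acute-phase genes, was at 13.73, 21.08 and 14.28 FPKM in OEA8_Ctrl, 13.14, 12.27 and 12.6 in OEA8_67, and 11.55, 12.08 and 13.3 in OEA8_69. The mutants were thus not above the controls, and the differences of -0.32 and -0.36 did not pass (adjusted p = 0.132 and 0.0893). Stat3 was between 47.31 and 55.1 FPKM and Nfkbiz, which encodes a cofactor of NF-kB at the Lcn2 promoter, between 32.12 and 37.95, and neither was called. The counts for this list depended on individual libraries. Without OEA8_Ctrl replicate 3 the calls in OEA8_69 against OEA8_Ctrl went from 4 to 11 and those between the mutants from 3 to 6, and without OEA8_69 replicate 1 or 3 the former went to 2 and 1. In OEA8_67 the 3 calls went to 0 without OEA8_67 replicate 3, and to 1 without any other mutant library or OEA8_Ctrl replicate 1. Between the mutants they went to 1 without any OEA8_67 library or OEA8_69 replicate 2 or 3.

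Receptors and iron handling genes related to the 6 proteins were also examined. Slc22a17, a cell surface receptor of lipocalin 2, was between 5.19 and 7.05 FPKM, and Lrp2, another of its receptors, was at or below 0.05 FPKM. Cd163, the macrophage receptor of haptoglobin bound to hemoglobin, was at or below 0.09 FPKM. Tlr2, which serum amyloid A can engage, was between 49.94 and 53.72 FPKM, with an adjusted p of 0.9998 in the F test. Of 18 tested genes on this list 1 was higher in OEA8_67 (Tfrc) and 1 lower (Mmp9), and in OEA8_69 2 were higher (Steap3 and Bdh2) and 2 lower (Mmp9 and Slc40a1), against OEA8_Ctrl. Between the mutants Mmp2 and Bdh2 were higher and Tfrc was lower in OEA8_69. The calls came to 11.1%, 22.2% and 16.7% of the list, beside 7.88%, 9.79% and 3.16% of all genes. Most of these calls were lost without some library, and over the alternatives they numbered 1 to 3, 1 to 5 and 0 to 4, while Mmp9 was called in every alternative. Mmp9, the gelatinase that human lipocalin 2 binds, was at 25.5 ± 1.20 FPKM in OEA8_Ctrl, 15.7 ± 1.27 in OEA8_67 and 14.3 ± 0.397 in OEA8_69 (SD, n = 3), with log2 differences of -0.67 and -0.79 (adjusted p = 2.4e-05 and 4.0e-06). Lcn2 did not pass in these comparisons.

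Interferon-stimulated genes varied strongly among the libraries of a group, and their relation to Hp was not tested. Their mean on the log2(FPKM + 1) scale over 31 tested genes was 4.60, 4.94 and 4.60 in OEA8_Ctrl, 4.63, 3.95 and 3.74 in OEA8_67, and 3.49, 4.09 and 4.55 in OEA8_69. OEA8_67 replicate 1 was at the level of the controls in this mean, while its Hp level of 5.11 FPKM was the lowest of all libraries. In each group, the library with the highest mean of these genes had the lowest Hp. Of the 31 genes 2 were called lower in OEA8_67 (Ifi27 and Zbp1) and 5 in OEA8_69 (Ifi27, Oas1a, Oas2, Bst2 and Lgals3bp) against OEA8_Ctrl, which is 6.45% and 16.1% of them, beside 4.66% and 5.24% of all genes. Between the mutants limma called 0, and 0 were under an unadjusted p of 0.05.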

How the data were processed

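RNA-seq was performed on 9 mouse libraries, grouped and numbered as their labels give. Per the study's methods, total RNA was sequenced on a BGISEQ-500 instrument, and adapter, poly-N and low-quality reads were removed. Bowtie2 2.2.5, HISAT2 2.0.4 and build mm10 are named in the submitters' processing notes. The authors deposited FPKM per gene and library, with group means that were not used. FPKM is relative to all mapped fragments, so a higher level of abundant genes lowers the rest. Whole reads were not recovered from low values, so no count model was used and the depth is unknown. At the best of many steps tried in each library, 34.8% to 48.3% of the values lay within 0.1 of a whole step. With no steps, 20% would do so at a step fixed in advance, and more at the best of many.

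Values were transformed to log2(FPKM + 1). Genes averaging 0.5 FPKM or more over the libraries (12012) were fitted with all 9 libraries in 1 limma 3.58.1 model in R 4.3.3 with trended empirical Bayes moderation. Benjamini-Hochberg adjustment was applied over all of them, at a threshold of 0.05. The fit was tested on simulated data. Identifiers were matched to RefSeq for 19179 genes. The 6 genes and all lists were chosen with earlier results of these data known. The result of 1 listed acute-phase gene is not reported here, so no counts or median of its list are given. Named were the 6 genes, from each list up to 6 called genes by smallest adjusted p with any that a count of 5 or fewer needed, and the 5 genes most like each member. Markers, genes without a call and other genes beyond this rule were named after their values were seen. Alternatives were a pseudocount of 0.1 or 0.5 FPKM, a minimum of 5 FPKM or none, quantile normalization, scaling by median of ratios, only the compared groups, robust or untrended moderation, a block for the replicate number, and leaving out each library. Length-class centring and the sum of Saa1 and Saa2 were added after seeing the data. Replicate numbers were not used to pair the libraries in the main fit. Sequences were handled in Python 3.11.15 with Biopython 1.88, and figures drawn with matplotlib 3.10.9.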

Additional observations from a re-analysis of the deposited data

How the results depend on the processing

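The calls of Hp in OEA8_67 against OEA8_Ctrl and against OEA8_69 kept their direction and passed in all 20 alternatives, with log2 differences from -0.40 to -0.29 and from 0.52 to 0.64. In OEA8_69 against OEA8_Ctrl, where 1 of the 6 genes was called, 0 were called with no filter and with a filter at 5 FPKM, which leaves Saa2 untested, and 2 with length-class centring. Against OEA8_67, where 2 were called, 1 was called with no filter and with the filter at 5 FPKM, and so it was in the F test. Leaving out 1 library gave 1 call in OEA8_67 against OEA8_Ctrl throughout, between 0 and 2 in OEA8_69 against OEA8_Ctrl, and between 1 and 2 in OEA8_69 against OEA8_67 and in the F test. With no filter Saa2 had adjusted p of 0.0823 and 0.0812 in the comparisons of OEA8_69, and the cause was not tested. Of the other named genes, the calls of Serpina3n, Il1rn, C4b, C1ra, Cd93 and Mmp9 given here also passed in every alternative that tested them, while Il17rc and Serpina3g (against OEA8_Ctrl) passed in 8 of 20, Socs3 in OEA8_67 in 9, Cd14 in 10, Cebpd in 10 and 15, Tfrc in 12 in both of its comparisons, Mt2 in 13, Bdh2 in 15 against OEA8_Ctrl and 12 between the mutants, Steap3 and Mmp2 in 15, Il6st in 16, and Lif in 18 against OEA8_Ctrl and 14 between the mutants.

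With the replicate number as a block, 0 genes were called in OEA8_69 against OEA8_Ctrl and 1 against OEA8_67, because Saa2 no longer passed (adjusted p = 0.0576 and 0.0532). The pairing was checked, and deviations of libraries with the same number correlated with r between -0.248 and 0.149. For libraries of different groups with other numbers, r was between -0.195 and 0.280. Deviations within a group are tied to each other, so this check cannot exclude a shared batch or culture.

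Directions turned for differences that were not called. Quantile normalization gave -0.036 for Saa3 and -0.015 for Lcn2 in OEA8_69 against OEA8_Ctrl and 0.028 for C3 in OEA8_67 against OEA8_Ctrl, and length-class centring gave -0.0076 for Lcn2 in OEA8_69. Summed with Saa1, Saa2 gave 0.034 in OEA8_67 against OEA8_Ctrl. Leaving out 1 library gave between -0.18 and 0.14 for Saa1 between the mutants, between -0.146 and 0.038 for Saa3 in OEA8_67 and between -0.00039 and 0.184 in OEA8_69, between -0.055 and 0.128 for Lcn2 in OEA8_69, and between -0.042 and 0.0070 for C3 in OEA8_67. The cause was not tested.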
